A study of Mus musculus with 2 samples.

Results

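Lcn2 and 8 further genes for secreted defence proteins (Slpi, Defb1, Defb6, S100a8, S100a9, Camp, Ltf and Pglyrp1) were followed in single cells of mouse back skin and of the preputial gland (PG). All 9 were found by symbol among the 32285 genes listed for each library. They were selected on their measured levels in these same libraries, so every level and ratio of a member is a description without a test.

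One library held cells of back skin, taken as biopsies of 6 mm, and the other held cells of whole PG, a large sebaceous gland beside the penis that serves as a model of the small sebaceous glands of skin. Per the methods of the study, each library pooled the cells of 3 male C57BL/6 mice aged 52 weeks. The labels name no treatment, both tissues went through the same dissociation kit, and per the labels both libraries were made with 10x Genomics 3′ v3.1 chemistry, which counts unique molecular identifiers (UMIs), tags that mark single mRNA copies. With 1 pooled library per tissue there was no spread between animals, so no p-value is given, and all 95% intervals cover counting error only. The skin barcode list held 6794880 entries and the PG list 737280, with 77142 in common and 0 barcodes passing in both, so tissue, library and any difference in chemistry cannot be told apart.

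Epithelia that face microbes secrete small proteins that bind iron, inhibit proteases or damage bacterial membranes. In keratinocytes many of these genes are switched on through the interleukin-1, interleukin-17 and NF-kappaB pathways, while neutrophils store several of the same proteins in granules. The pilosebaceous duct, which carries sebum to the surface, is a site where follicle bacteria and gland secretion meet.

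A barcode was taken as a cell if it held 500 genes and 1000 UMIs or more and no more than 10% of its UMIs were mitochondrial, which left 8899 in skin and 4699 in PG. Each was put into a class by gates on 17 marker lists, which hold none of the 9 genes. Sebocytes numbered 25 in skin and 718 in PG, and upper follicle or duct keratinocytes 416 and 397. Basal keratinocytes numbered 3094 and 1134, suprabasal keratinocytes 1361 and 21, fibroblasts 870 and 485, endothelial cells 83 and 50, and macrophages or dendritic cells 198 and 181. A remainder of 997 and 1342 keratinocytes passed no finer gate. In PG that remainder was led by genes of DNA replication such as Pclaf and Hist1h1b, and in skin 0 of its 10 leading genes were markers of the class, so it was not compared between tissues.

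A gated class is a range rather than a cell type. Of the sebocytes, 4 in skin and 49 in PG lay within 20% above the gate, and of the duct keratinocytes 25 and 29. Barcodes that passed gates of different lineages (253 in skin, 104 in PG) were set aside as possible doublets, whereas doublets within a lineage cannot be seen this way. Immunoglobulin genes stood among the 10 leading genes of skin basal keratinocytes, of PG duct keratinocytes and of PG macrophages, and their part in the levels given here was not tested.

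Levels are UMIs of a gene per 1000000 UMIs of a class (CPM). Since 3′ tags depend on transcript ends, levels are compared between cells and not between genes. Free RNA, measured in barcodes with at most 100 UMIs, gives the level expected in a barcode that held leaked RNA only. In a cell, leaked RNA gives only a part of that level. A level under that of free RNA is therefore not shown to come from leaked RNA. A sentence on the share of cells with a UMI uses cells thinned to 1000 UMIs each.

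Before the levels, the stretches upstream of 4 members are shown, since these genes carry the patterns described below. They are RefSeq sequences of build GRCm38.p6, read 5′ to 3′ on the strand of the gene and taken from the 250 bases before its start. Capitals mark matches, on either strand, to GGGNNNNNCC, a simplified NF-kappaB motif, or to TTNCNNNAA, a simplified C/EBP motif. Lcn2 (chr2:32387798-32387850, minus strand) is shown for the 53 bases of its window that lie within the gene but outside its annotated exons. Slpi (chr2:164356508-164356757, minus strand) lies within the longest annotated Slpi gene model and overlaps none of its exons. Defb6 (chr8:19225228-19225477, plus strand) and S100a9 (chr3:90695722-90695971, minus strand) end directly before the annotated gene.
Lcn2: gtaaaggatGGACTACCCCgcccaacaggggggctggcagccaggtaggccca
Slpi: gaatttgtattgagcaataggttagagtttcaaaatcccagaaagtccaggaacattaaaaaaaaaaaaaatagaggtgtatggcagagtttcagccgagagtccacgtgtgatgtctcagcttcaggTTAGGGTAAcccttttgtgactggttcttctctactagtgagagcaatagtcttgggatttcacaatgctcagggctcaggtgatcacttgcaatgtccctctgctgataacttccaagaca
Defb6: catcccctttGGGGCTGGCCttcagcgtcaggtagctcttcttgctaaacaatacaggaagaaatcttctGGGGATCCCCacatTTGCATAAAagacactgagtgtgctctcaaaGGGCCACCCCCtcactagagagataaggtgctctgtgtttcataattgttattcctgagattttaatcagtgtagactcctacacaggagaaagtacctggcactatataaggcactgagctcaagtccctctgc
S100a9: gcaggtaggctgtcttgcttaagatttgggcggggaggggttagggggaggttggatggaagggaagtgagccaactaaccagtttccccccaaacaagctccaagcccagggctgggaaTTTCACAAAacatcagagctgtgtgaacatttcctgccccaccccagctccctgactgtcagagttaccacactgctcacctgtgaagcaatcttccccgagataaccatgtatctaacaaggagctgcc

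The Lcn2 match GGACTACCCC began 102 bases before the start and fits the motif when read on the strand opposite to the one printed, as does the Slpi match. Defb6 held its C/EBP match TTGCATAAA 166 bases before the start, between NF-kappaB matches that began 240, 180, 135 and 134 bases before it. Of the 8 members in the RefSeq promoter table, 4 held the NF-kappaB letters (Lcn2, Defb6, Ltf and Pglyrp1) and 4 the C/EBP letters (Slpi, Defb6, S100a9 and Ltf). The same letters stood in 45.8% and 32.9% of all 32851 windows of that length, so the matches describe the sequence and mark no site of binding.

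Lcn2 encodes lipocalin 2, a protein that withholds iron from bacteria by binding their siderophores (Lcn2, ENSMUSG00000026822, GRCm38 chr2:32384633-32388252). It was among the transcripts found in nearly all epithelial cells of PG and in few cells of skin. In PG 3741 of 4699 barcodes held 40012 Lcn2 UMIs, and in skin 59 of 8899 held 112. Epithelial classes, 76.9% of the barcodes in PG and 76.3% in skin, held 96.1% of the Lcn2 UMIs in PG and 28.6% in skin.

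In PG the highest level of Lcn2 was that of duct keratinocytes, 4659 CPM (4560.5 to 4759.9), followed by sebocytes with 2844 CPM (2793 to 2897). Suprabasal keratinocytes had 2598 CPM (2226 to 3014) and basal keratinocytes 2324 CPM (2274 to 2374). The intervals of sebocytes and suprabasal cells overlapped, as did those of suprabasal and basal cells. All of these classes exceeded the free RNA level of 948 CPM (911 to 987) by more than counting error.

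Most epithelial cells of PG shared in this level. After thinning, 84.4% of sebocytes, 93.5% of duct keratinocytes, 100% of the suprabasal cells and 79.5% of basal cells held an Lcn2 UMI. Among macrophages the share was 1.7%, which does not measure leaked RNA in epithelium. The estimated share of free RNA was 4.7% in macrophages, 30.2% in sebocytes and 54.5% in basal cells. For the last 2 classes it was 15.4% and 19.4% if the gene Sparc is not used. The 30.2% and 54.5% are too high, since they would give 277 and 500 CPM of Defb6, above the 71.6 and 99.9 CPM measured. Lower single genes were Mgp in sebocytes, at 5.2% of its free RNA level, and Awat2 in basal cells, at 2.5%. Both lie under the values without Sparc too, while other genes stood higher. Values with free RNA subtracted, given below, may thus remove too much. The medians over cells were 22.0 Lcn2 UMIs per 10000 UMIs in sebocytes, 33.99 in duct cells, 21.8 in suprabasal cells and 16.3 in basal cells.

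**Figure D1:**
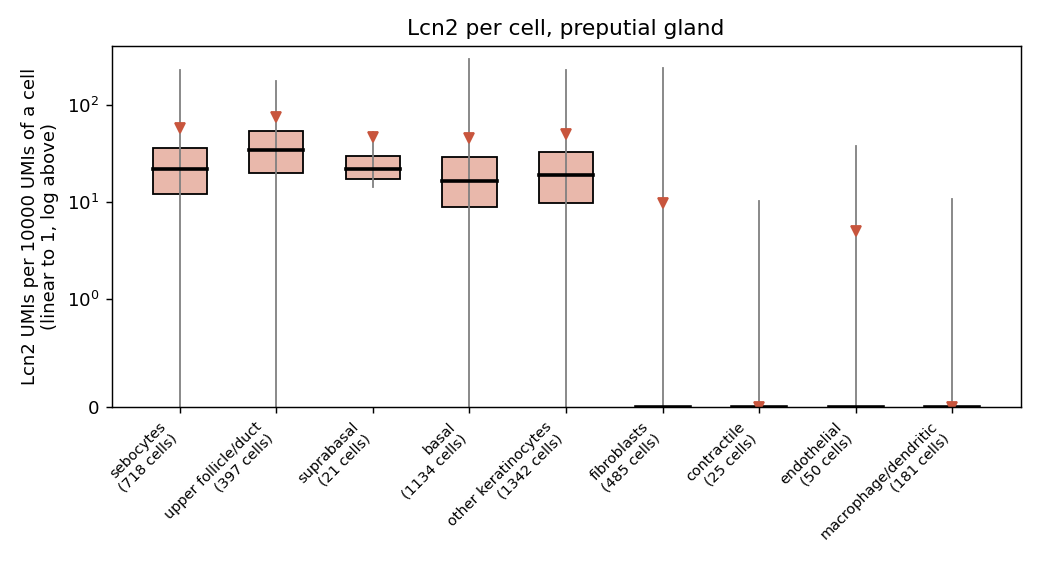
Lcn2 UMIs per 10000 UMIs of a cell (y axis, linear to 1 and logarithmic above) in each PG class; boxes span the middle 50% of cells, thick lines are medians, triangles the 90th percentile and thin lines the lowest and highest cell. Medians lay at 22.0 in sebocytes and 33.99 in duct keratinocytes, and at 0 in the stromal and immune classes, where single cells still reached the epithelial range.

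Skin epithelium held few Lcn2 UMIs at all. Basal keratinocytes had 1.9 CPM (1.1 to 3.0, 17 UMIs), duct keratinocytes 1.3 CPM (2 UMIs) and suprabasal cells 0.18 CPM (1 UMI). The 25 skin sebocytes held 1 UMI, or 7.6 CPM (0.19 to 42.3), at a median depth of 4426 UMIs per cell against 5387 in PG sebocytes. The level of free RNA in skin was 0.35 CPM.

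Within classes the PG level exceeded that of skin, 374-fold in sebocytes and 1232-fold in basal keratinocytes. The log2 ratio of PG over skin was 8.55 (6.07 to 13.85) in sebocytes, where the skin value rests on that single UMI, and 10.27 (9.59 to 11.05) in basal keratinocytes. Duct keratinocytes differed by 11.82 (9.96 to 14.86). With the estimated share of free RNA subtracted from both tissues, the sebocyte value was 8.41 and the basal value 9.96.

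Between sebocytes and basal keratinocytes of PG the difference in Lcn2 was small. Sebocytes exceeded basal keratinocytes by 0.29 on the log2 scale (0.25 to 0.33), and that value fell to 0.035 with 1 more marker required per gate and was 0.50 with free RNA subtracted, or 0.33 when Sparc, which stood at 250.2% of its free RNA level in PG basal cells, was not used for that estimate. PG sebocytes with a UMI of Awat2, an enzyme of wax ester synthesis in maturing sebocytes, had 1833 Lcn2 CPM (1743 to 1927, 111 cells), and those without had 3108 CPM (3047 to 3169.7, 607 cells). The 101 sebocytes that did not also pass the keratinocyte gate still had 2621 CPM.

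**Figure D2:**
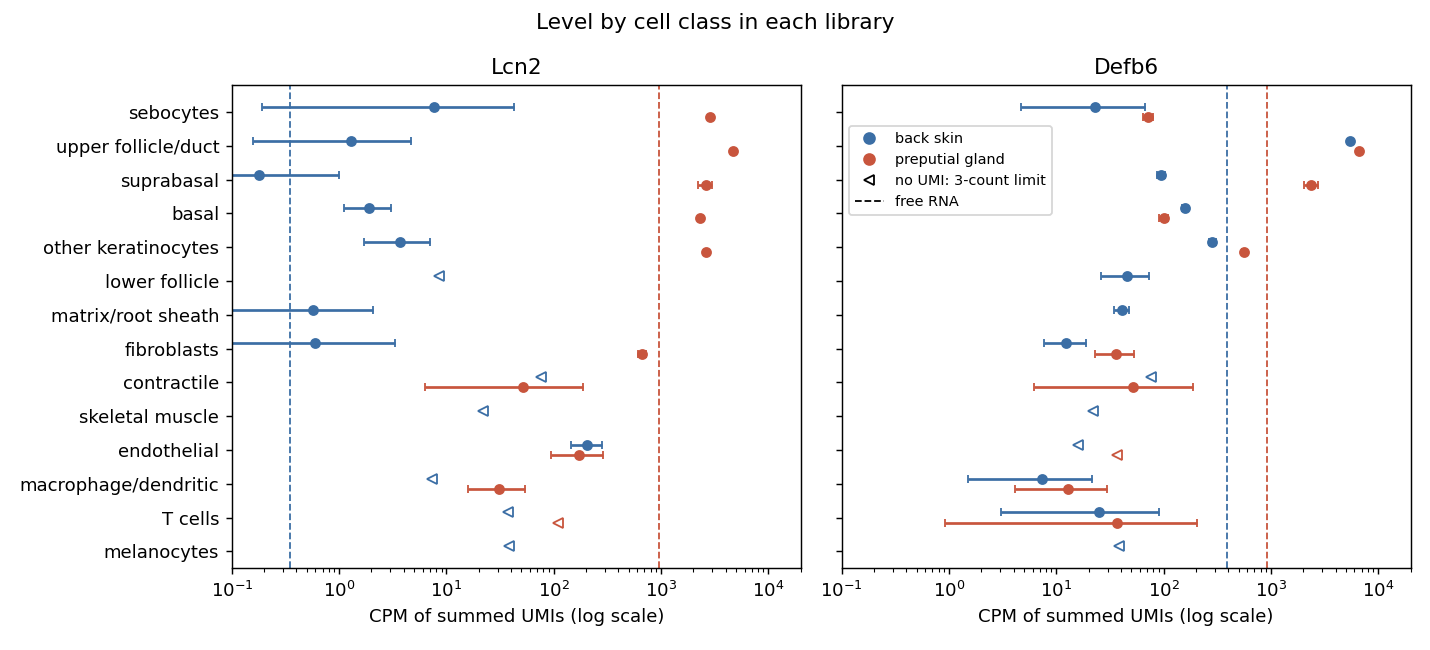
CPM of Lcn2 (left) and Defb6 (right) by class on a logarithmic x axis, skin in blue and PG in red, with 95% counting intervals; open triangles stand at the 3-count limit of classes without a UMI, dashed lines at the free RNA level. Lcn2 parted the tissues in every epithelial class (2844 against 7.6 CPM in sebocytes), whereas Defb6 peaked in the duct class of both (6602 and 5502 CPM).

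Stromal cells of PG carried Lcn2 unevenly. Fibroblasts had 662 CPM (604 to 726), with a UMI in 98 of 485 cells and up to 33 UMIs in a cell, against 0.59 CPM (1 UMI in 870 cells) in skin. Endothelial cells of PG had 171 CPM (93.5 to 287, 14 UMIs, of which 1 cell held 8) and macrophages 30.7 CPM (15.9 to 53.6, 12 UMIs). The estimated share of free RNA would give 56.8 CPM in the endothelial cells and 44.7 CPM in the macrophages. The macrophage level did not exceed that. PG T cells, 15 in number, held 0 UMIs, which allows up to 109 CPM.

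The fibroblast level was set beside genes that fibroblasts should lack. Lcn2 in PG fibroblasts stood at 69.9% of its free RNA level, whereas the epithelial transcripts Awat2, Cck, Lgals7 and Ly6d stood at 0.95%, 4.97%, 4.52% and 1.88% of theirs. Cyp2f2, a further gene of the sebocyte list, stood at 39.2%. However, skin fibroblasts held 66 Cyp2f2 UMIs (39.0 CPM) and skin sebocytes 0, so it need not be a gene that fibroblasts lack. An exception, Krt10, stood at 279.7% of its low free RNA level, with 35 UMIs.

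PG fibroblasts with an Lcn2 UMI also differed in other secreted proteins. Saa3, an acute phase protein, had 2790.5 CPM (2539.6 to 3059) in the 98 cells with Lcn2 and 184 CPM (150 to 224) in the 387 without. Apod, another lipocalin, had 5175 CPM against 2602 CPM. The matrix gene Dcn had 17775 and 19501 CPM, and the keratinocyte gene Lgals7 239.7 and 167 CPM. Of other epithelial genes, Krt14 had 49.2 and 18.6 CPM, Cck 24.6 and 11.2 CPM, and Awat2 12.3 and 0 CPM. Slpi went the other way, with 0 and 16.7 CPM. Each of these epithelial pairs had overlapping intervals, and the part of leaked RNA or doublets was not tested. These genes were chosen after their values were seen.

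Among the named skin classes, endothelium had the highest Lcn2 level. Its 83 cells held 39 UMIs in 19 cells, 206 CPM (146 to 281), with at most 6 UMIs in a cell. Macrophages of the same library held 0 UMIs, which allows up to 7.3 CPM. The endothelial level was 28.1-fold that limit, without its own counting error. PG over skin, endothelial Lcn2 differed by -0.27 on the log2 scale (-1.26 to 0.65), an interval that includes 0. Leaked RNA was not subtracted there, and its estimated share would give 56.8 of the 171 CPM in PG and 0.02 CPM in skin.

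The skin endothelial cells with Lcn2 leaned to lymphatic genes, chosen after their values were seen. Prox1, the regulator of lymphatic identity, had 379 CPM (235 to 580) in the 19 cells with Lcn2 and 104 CPM (57.0 to 175) in the 64 without. The blood vessel genes Selp and Flt1 had 0 UMIs in the cells with Lcn2, and 1206 and 827 CPM in those without. In turn, the 20 cells with at least 2 of Prox1, Lyve1, Ccl21a and Mmrn1 had 404 Lcn2 CPM (247 to 623), and the other 63 had 136 CPM (81.6 to 212). PG had 2 cells by that rule, of which 1 held 8 Lcn2 UMIs, and its other 48 had 77.9 CPM (28.6 to 169.6). The endothelial classes compared above need not hold like cells in both tissues.

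Slpi encodes the secretory leukocyte protease inhibitor, which shields epithelium from neutrophil elastase (Slpi, ENSMUSG00000017002, chr2:164354070-164389095). In PG it was a gene of the duct and of suprabasal cells, with 3109.7 CPM (3029 to 3192) and 4255 CPM (3776 to 4779). Basal keratinocytes had 151 CPM (139 to 165) and sebocytes 22.5 CPM (18.1 to 27.6), both under the free RNA level of 334 CPM. After thinning, 54.7% of duct cells and 71.4% of suprabasal cells held a UMI, against 1.5% of sebocytes.

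In skin Slpi was carried by few cells. The library held 130 Slpi UMIs in 32 cells, of which 2 cells held 46.2%. Duct keratinocytes had 11.6 CPM (6.9 to 18.4), with 16 of their 18 UMIs in 1 cell. PG over skin, the log2 ratio was 8.06 (7.40 to 8.82) in duct cells and 6.51 (5.77 to 7.35) in basal cells. PG macrophages showed 194 CPM, but 97.4% of those 76 UMIs came from 2 of 181 cells.

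Defb1 encodes a beta-defensin made by many epithelia (Defb1, ENSMUSG00000044748, chr8:21776599-21795185). It was highest in duct keratinocytes of both tissues, with 303 CPM (276 to 331) in skin and 1684 CPM (1625 to 1745) in PG. Basal keratinocytes had 39.7 CPM (35.7 to 44.1) in skin and 216 CPM (201 to 232) in PG. In PG sebocytes it stood at 81 UMIs and 20.002 CPM, below the free RNA level of 170 CPM.

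Duct over basal, the log2 ratio of Defb1 was 2.93 (2.73 to 3.13) in skin and 2.96 (2.85 to 3.08) in PG, and these intervals overlapped. PG exceeded skin by 2.48 (2.34 to 2.62) in duct cells and by 2.44 (2.26 to 2.63) in basal cells. In sebocytes the difference was -0.93 (-2.21 to 0.73), an interval that includes 0.

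Defb6, a further beta-defensin (Defb6, ENSMUSG00000050756, chr8:19225478-19228209), marked the duct class of both tissues. Duct keratinocytes had 5502 CPM (5386 to 5620.3) in skin and 6602 CPM (6484 to 6722) in PG. After thinning, 76.9% and 91.4% of duct cells held a UMI, against 5.7% and 5.6% of basal cells, and 1.5% and 2.2% of macrophages. Duct over basal, the log2 ratio in skin was 5.13 (5.05 to 5.21).

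Among the members with UMIs in the duct cells of both tissues, Defb6 differed least between them. PG over skin, duct cells differed by 0.26 on the log2 scale (0.22 to 0.30), but by -0.21 when cells were weighted equally, so no direction is given. Basal keratinocytes had 157 CPM (149 to 166) in skin and 99.9 CPM (89.8 to 111) in PG, both under the free RNA levels of 389 and 917 CPM. Suprabasal cells had 94.2 CPM (86.3 to 103) in skin and 2374 CPM (2019 to 2773) in the 21 cells of PG.

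Within the duct class the suprabasal gate split Defb6 in opposite directions. In skin, duct cells past that gate had 3630 CPM against 7788 CPM in the others, a log2 ratio of -1.10 (-1.17 to -1.04). In PG the values were 7578 and 4907 CPM, a log2 ratio of 0.63 (0.57 to 0.69). With 1 more marker per gate the ratios were -1.47 and 0.27, of the same signs.

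Markers moved with this split in different ways. In PG the duct marker Cst6 had 92965 CPM past the gate and 34291 CPM in the others, and in skin 44785 and 45751 CPM. Krt14, a keratin of basal cells, had 4173 and 4106 CPM in PG, and 487 and 2599 CPM in skin. Krt10, a marker of the suprabasal gate itself, had 3597 CPM in all skin duct cells and 34.2 CPM in all PG duct cells. The gate therefore need not select like cells in both tissues. The part of these markers in the split was not tested.

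Other members went either way in PG duct cells. Slpi in PG duct cells was higher past the gate, 4037 against 1498 CPM, a log2 ratio of 1.43 (1.33 to 1.53) that fell to 0.05 with 1 more marker per gate. For Lcn2 in PG the ratio was 0.75 (0.68 to 0.82), and it turned to -0.16 with that gate. Defb1 differed by 0.20 (-0.07 to 0.48) in skin and 0.08 (-0.03 to 0.18) in PG, intervals that include 0. In PG, S100a8 was lower past the gate by a log2 ratio of -0.59 (-0.96 to -0.22), and so was Ltf, with 3 of its 49 UMIs there. For S100a9 in PG the ratio was -0.66 (-1.60 to 0.29).

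**Figure D3:**
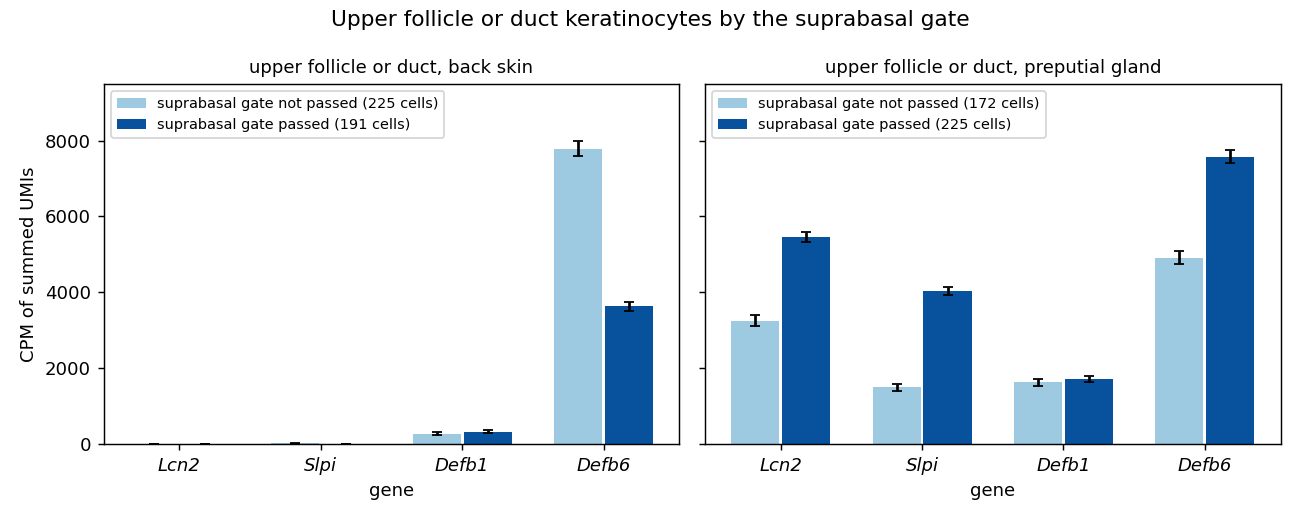
CPM of 4 members (y axis, linear from 0) in upper follicle or duct keratinocytes that did or did not pass the suprabasal gate, skin left and PG right, with 95% counting intervals. Defb6 was lower past the gate in skin (3630 against 7788 CPM) and higher past it in PG (7578 against 4907 CPM).

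S100a8 and S100a9 encode the subunits of calprotectin, a metal-binding protein of neutrophils and of activated keratinocytes. S100a8 (ENSMUSG00000056054, chr3:90668978-90670035) and S100a9 (ENSMUSG00000056071, chr3:90692632-90695721) lie 22596 bases apart on opposite strands. In PG both were highest in the 21 suprabasal cells, with 1194 CPM (947 to 1487) for S100a8 and 209 CPM (114 to 351) for S100a9. Of these cells, 7 held S100a8 and 5 held S100a9. Duct cells of PG had 140 CPM (124 to 159) for S100a8 and 23.2 CPM (16.7 to 31.4) for S100a9.

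The share of S100a8 in the pair depended on few barcodes in skin. S100a8 made up 87.6% of the pair's UMIs in PG (85.4% to 89.7%) and 43.0% in skin (38.2% to 47.9%). In skin 2 barcodes held 77.5% of all S100a9 UMIs, and without the 2 richest barcodes of each library S100a8 made up 69.1% in skin (61.7% to 75.9%) and 88.4% in PG (86.0% to 90.6%). One, of mixed lineage, held 87 S100a9 and 38 S100a8 UMIs with 2 neutrophil, 3 macrophage and 5 keratinocyte markers, and the other, a duct cell with 0 neutrophil markers, held 99 and 22.

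The ratios of the calprotectin genes moved when such barcodes were left out. In duct cells S100a9 differed by -1.82 (-2.36 to -1.31) on the log2 scale, PG over skin, and by -0.64 without the 2 barcodes of each library richest in the pair. S100a8 differed by 3.18 (2.57 to 3.85) in duct cells, and by 6.07 without those barcodes. One of them held 22 of the 24 S100a8 UMIs of skin duct cells, so the second value lies near the floor. In the PG epithelial classes S100a8 was 85.1% to 94.4% of the pair. In skin it was 92.6% in basal keratinocytes (25 S100a8 and 2 S100a9 UMIs) and 100% in hair matrix cells (23 and 0), but 15.9% in duct cells (24 and 127), and suprabasal cells held 9 S100a8 and 16 S100a9 UMIs.

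No passing barcode of either library met the neutrophil gate, so the levels above come from classes gated as other cells. Among barcodes that missed the limits of 500 genes or 1000 UMIs but held 200 genes and 500 UMIs or more, 4 of 2156 in skin and 0 of 1311 in PG met it. The 4 skin barcodes held 94 S100a8, 252 S100a9, 17 Slpi, 3 Pglyrp1 and 1 Lcn2 UMIs, and 0 of Camp or Ltf, among 2545 UMIs.

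Camp encodes cathelicidin, whose cleaved peptide damages bacterial membranes (Camp, ENSMUSG00000038357, chr9:109847379-109849617). It was the only member with its highest PG level in sebocytes, 45.9 CPM (39.6 to 53.0), with 186 of the 279 PG UMIs. That interval overlapped the one of suprabasal cells, with 14.9 CPM (0.38 to 83.2, 1 UMI). Basal keratinocytes had 10.1 CPM (7.1 to 13.9), near the free RNA level of 10.5 CPM, and duct cells 1.1 CPM (2 UMIs). In PG a Camp UMI was found in 17.7% of sebocytes, and in 5.2% after thinning, against 0 of 181 macrophages, which allows up to 1.66%.

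Camp, like Lcn2, was lower in PG sebocytes with an Awat2 UMI, which were also deeper (median 7602 against 5115 UMIs) and richer in the duct marker Cst6 (1829 against 149.8 CPM) and in Defb6 (161 against 48.3 CPM). The part of depth and of duct transcripts in this difference was not tested. Sebocytes without Awat2 had 51.7 CPM (44.1 to 60.2) and those with it 23.9 CPM (14.6 to 36.9). Sebocytes that failed the keratinocyte gate had 66.9 CPM (45.7 to 94.4) and the others 43.1 CPM (36.6 to 50.5), intervals that overlap. Skin held 7 Camp UMIs in all and 0 in its 25 sebocytes, which allows up to 22.8 CPM. The PG sebocyte level was 2.0-fold that limit, a value that leaves out the counting error of the PG level.

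Ltf encodes lactoferrin, an iron-binding protein of secretions and neutrophil granules (Ltf, ENSMUSG00000032496, chr9:111019271-111042767). All 49 PG UMIs came from 6 duct keratinocytes, of which 1 held 32 and another 13. All 6 also held Lcn2 and Slpi UMIs, as did 394 and 283 of all 397 PG duct cells. The cells with 32 and 13 Ltf UMIs held 0 Defb6 UMIs and the others 4 to 26, whereas 386 of the 397 held Defb6. Skin held 1 Ltf UMI, in a macrophage.

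Pglyrp1 encodes a peptidoglycan recognition protein that binds bacterial cell walls (Pglyrp1, ENSMUSG00000030413, chr7:18871331-18890459). In PG it had 328 CPM (206 to 497) in suprabasal cells and 265 CPM (241 to 289) in duct cells. Basal cells had 38.3 CPM (32.2 to 45.3), under the free RNA level of 45.8 CPM, and sebocytes 5.2 CPM. Of the 190 PG duct cells with Pglyrp1, 155 held Slpi as well, beside 283 of all 397 duct cells.

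Skin held 41 Pglyrp1 UMIs, never more than 1 in a cell. Endothelial cells had 31.6 CPM (11.6 to 68.9, 6 UMIs) and T cells 37.4 CPM (7.7 to 109, 3 UMIs), against 1.3 CPM (2 UMIs) in duct cells. PG over skin, the log2 ratio was 7.68 (5.82 to 10.73) in duct cells and 4.97 (4.09 to 6.01) in basal cells.

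**Figure D4:**
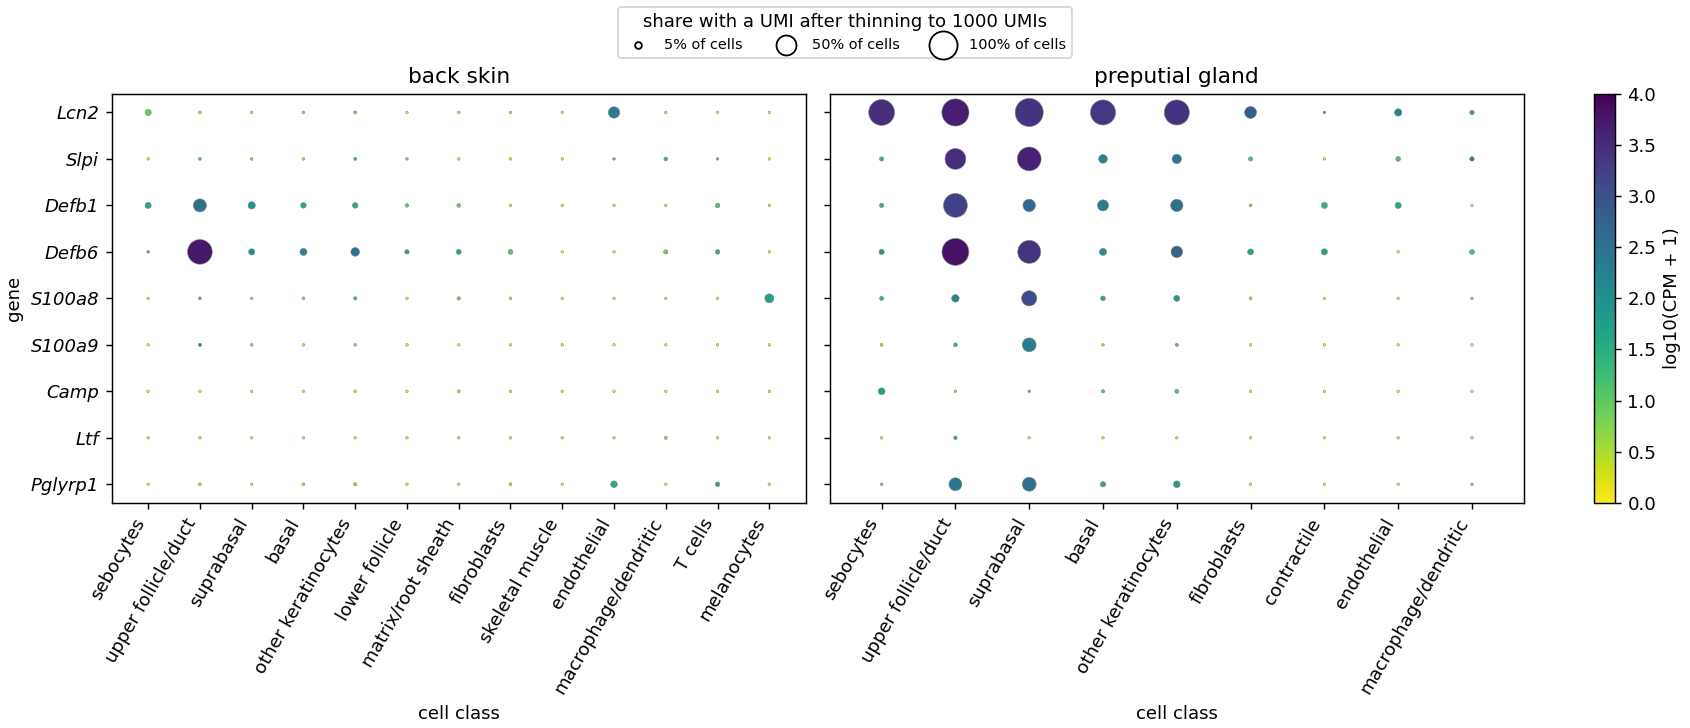
The 9 members (rows) in each class of at least 20 cells (columns), skin left and PG right; dot area is the share of cells with a UMI after thinning to 1000 UMIs and colour the log10 of CPM + 1. Lcn2 was found in most cells of each PG epithelial class (79.5% of basal cells and 84.4% of sebocytes), Slpi, Defb1, Defb6 and Pglyrp1 had their larger PG dots in duct and suprabasal cells, and Camp had a small dot in sebocytes (5.2%).

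The members were then set beside all genes of a class. A gene entered with at least 20 CPM in either tissue and was counted when the tissues differed at least 4-fold. In sebocytes 1 of 5 members that entered, Lcn2, was at least 4-fold higher in PG, beside 1.61% of 6146 genes, and 0 were lower, beside 8.33%. In basal keratinocytes 5 of 6 were higher (Lcn2, Slpi, Defb1, S100a8 and Pglyrp1), beside 4.66% of 6377 genes, and 0 lower, beside 6.4%. Of these, Slpi and Pglyrp1 lay under their free RNA levels in PG basal cells. S100a8, with 28.5 CPM (23.3 to 34.6) in those cells, lay near its own free RNA level. The estimated free share of 54.5% would give 182 CPM of Slpi there, above the 151 CPM measured, so that share is too high. No Slpi ratio is left after subtracting it, and 6.06 is left if Sparc is not used. For Pglyrp1 the ratio after subtraction was 3.64. In the same cells Awat2 stood at 2.5% of its free RNA level, so these subtractions may remove too much.

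Duct cells gave the longest list of members. Of 8 that entered, 6 were at least 4-fold higher in PG (Lcn2, Slpi, Defb1, S100a8, Ltf and Pglyrp1), beside 4.97% of 5729 genes, and 0 lower, beside 7.99%. In fibroblasts 1 of 2, Lcn2, was higher, beside 2.61% of 6352 genes, and 0 lower, beside 1.61%. The median log2 ratio of the members was 1.01 in sebocytes, 4.17 in basal cells, 3.49 in duct cells and 5.04 in fibroblasts, beside -0.15, 0.12, -0.22 and -0.04 for all genes that entered. For these counts and medians, UMI sums under 3 were raised to 3. Members picked for high levels had to stand apart here, so nothing is read from these counts.

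**Figure D5:**
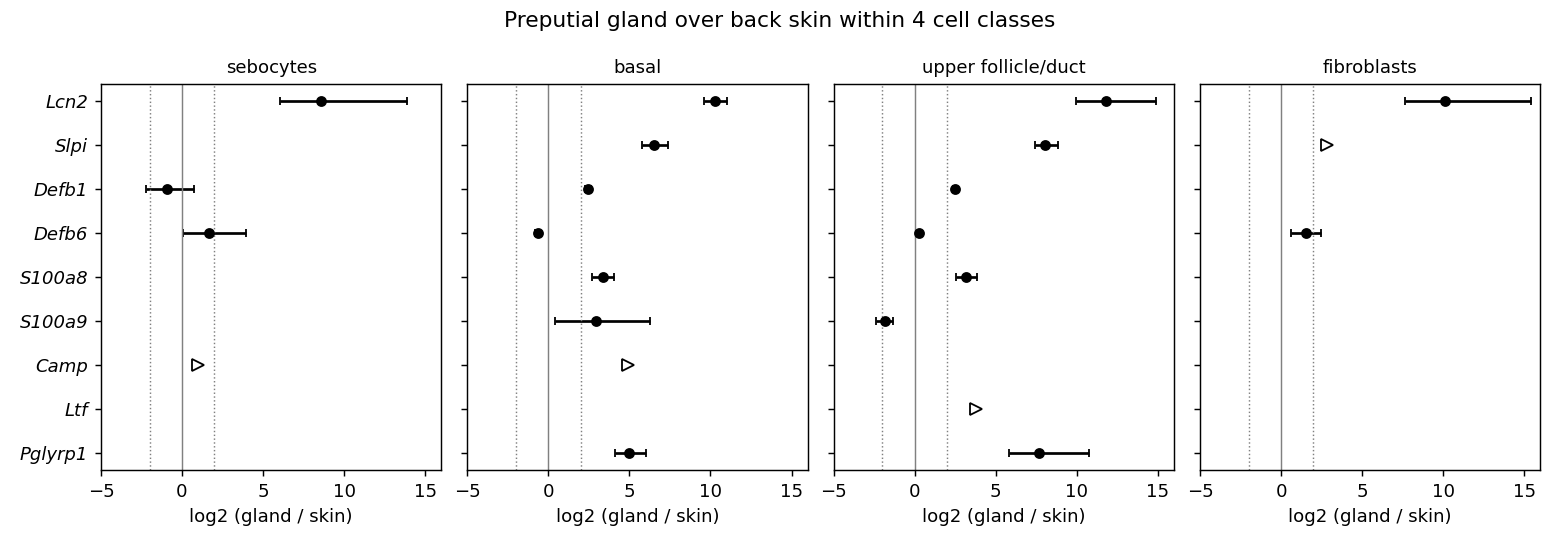
The log2 ratio of PG over skin (x axis) for each member in 4 classes, with 95% counting intervals; open triangles are lower bounds where skin had no UMI, and dotted lines mark 4-fold. Lcn2 lay at 8.55 in sebocytes and 11.82 in duct cells, whereas Defb6 lay at 0.26 in duct cells and -0.65 in basal cells; genes without a usable ratio have no symbol.

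Other genes of epithelial defence were taken from a list of 59, of which 57 were in the files. At 20 CPM or more in a class of at least 20 cells stood 4 of 6 ligands in the files, 7 of 8 receptors, 7 of 7 regulators, 12 of 22 other effectors and 0 of 4 neutrophil granule genes. The share of all genes that reach this level is not given, so nothing is read from these counts. In a small class few UMIs suffice, as for the regulator Elf3 with 2 UMIs in PG suprabasal cells. Among ligands, Il1b was highest in macrophages, with 222 CPM (179 to 273) in skin and 2934 CPM (2767 to 3109) in PG. Tnf in the same class had 237 and 803 CPM. In the 15 PG T cells, too few for that count, Il17a had 41 UMIs in 5 cells.

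Regulators and receptors moved in both directions. Cebpb, a factor of acute phase genes, had 141 CPM in skin basal cells and 681 CPM in PG basal cells, a log2 ratio of 2.27 (2.17 to 2.37), and 775 and 1000.3 CPM in sebocytes. Nfkbiz, a cofactor of NF-kappaB, was lower in PG sebocytes, with 17.8 against 98.8 CPM, a log2 ratio of -2.47 (-3.34 to -1.50) that rests on 13 skin UMIs. Il6ra, a receptor subunit for interleukin-6, had 58.6 CPM in skin basal cells and 2.0 CPM in PG basal cells.

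By the same 4-fold rule, 0 of 11 list genes were higher in PG sebocytes, beside 1.61% of all genes, and 1 was lower (Nfkbiz), beside 8.33%. The depth of skin sebocytes limits the count of higher genes there. Wfdc18, Saa1, Saa3 and Slc22a17 had 0 UMIs in skin sebocytes. With the 3-count limit in skin their log2 ratios were 0.23, 1.35, 0.87 and 0.28, too low to be counted. The receptor gene Lrp2 had 1 UMI there and a log2 ratio of 2.51 (0.01 to 7.82). It was not counted because that skin sum was raised to 3. In basal cells 2 of 13 were higher (Cebpb and Wfdc18), beside 4.66%, and 3 lower (Il1rl2, Il6ra and Ang), beside 6.4%. In duct cells 3 of 16 were higher (Wfdc2, Wfdc18 and Chil1), beside 4.97%, and 1 lower (Il6ra), beside 7.99%. In fibroblasts 3 of 22 were higher (Saa1, Saa3 and Hp), beside 2.61%, and 0 lower, beside 1.61%. With so few list genes, several of these counts lie near the background.

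Wfdc18, a protein with the same WAP domain as Slpi, was patterned like Slpi. It had 1892 CPM (1829 to 1956) in PG duct cells, 3509 CPM (3075 to 3987) in suprabasal cells and 26.7 CPM in sebocytes, and 27.7 CPM in skin duct cells. Over 18 classes of at least 30 cells, the correlation of their log2(CPM + 1) was 0.85 (Wfdc18 with Slpi), the fifth highest for Slpi among 7248 genes.

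For Lcn2 the 5 most alike genes over the same 18 classes were Bsg (0.91), mt-Nd4l (0.90), Gclm (0.88), Gstp1 (0.88) and Anapc11 (0.87). Defb6 was most like Egr2 (0.96), Calml3 (0.91) and Krt79 (0.90), and S100a9 most like Teddm3 (0.92) and Cst6 (0.89). Krt79, Teddm3 and Cst6 are markers of the duct gate. In skin duct cells 1 cell held 99 of the 127 S100a9 UMIs, and its part in the S100a9 values was not tested. The classes share 2 libraries and their free RNA, so these values describe likeness and carry no test.

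The uptake receptors of lipocalin 2 were measured as well. Lrp2, the large endocytic receptor megalin, had 43.2 CPM (175 UMIs) in PG sebocytes and 7.6 CPM (1 UMI) in skin sebocytes. Slc22a17, a second receptor, had 27.7 CPM in PG sebocytes and 0 UMIs in skin sebocytes, which allows up to 22.8 CPM, so no difference was detectable at this depth. Of 8 other lipocalins, 3 reached 20 CPM in a class (Apod, Ptgds and Rbp4), a count given without the share over all genes and from which nothing is read. Apod had its highest level in fibroblasts of both tissues, with 1356 CPM in skin and 3199 CPM in PG. Ptgds had 9034 CPM (8383 to 9723) in the 21 melanocytes of skin.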

How the data were processed

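The deposited gene by barcode matrices hold UMI counts, which the authors made with Cell Ranger 4 and build mm10 per the file headers and the submitters' processing notes; the annotation release is not given in the sources used here. Total counts were 37675226 UMIs in skin and 26288071 in PG. Passing barcodes had at least 500 genes, 1000 UMIs and at most 10% mitochondrial UMIs. A class needed at least 3 distinct markers and a share of UMIs in them of 0.05% to 1% by class, and sebocytes also needed Cidea or Pparg; these cut-offs were set after marker levels were seen, and the members and lists were chosen with earlier results of these data known. Counts were summed per class and given as CPM with exact Poisson intervals, ratios with exact binomial intervals and shares of cells with Clopper-Pearson intervals, at the 95% level; a count of 0 allows 3 counts. The intervals and limits cover counting error only. Ratios were computed with Python 3.11.15, numpy 2.4.6, scipy 1.17.1 and pandas 2.3.3 and tested on simulated data. The share of free RNA in a class was estimated from genes it should lack, fibroblast genes in epithelium and sebocyte or keratinocyte genes elsewhere. In PG sebocytes and basal cells the estimates exceeded what single genes allowed, so subtraction may remove too much there. Named genes were the 9 members, list genes that reached 20 CPM in a class, and the 5 genes most correlated with each member; others were chosen after their values were seen, as stated beside them. Of the alternatives, 11 were planned and 3 added after seeing the data: a sebocyte gate without Cidea or Pparg, the removal of 2 barcodes per library rich in S100a8 and S100a9, and free RNA estimated without Sparc. Gene positions are those of GENCODE M21 on GRCm38. Defb1 was not matched in the promoter table.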

Additional observations from a re-analysis of the deposited data

Results flagged for a closer look

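Lcn2 in endothelial cells over basal keratinocytes differed in direction between the libraries, with a log2 ratio of 6.77 in skin and -3.76 in PG. Defb6 in suprabasal over basal keratinocytes had a log2 ratio of -0.74 in skin and 4.57 in PG. Both were singled out because the tissues moved in opposite ways. The PG suprabasal class held 21 cells, of which 8 lay within 20% above the gate. Of the markers of that gate, Krt10 had 15107.5 CPM in skin suprabasal cells and 44.8 CPM in those of PG. Krt1 had 5204 and 343 CPM, so the class need not hold like cells in both tissues.

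Duct keratinocytes past the suprabasal gate over the others also went opposite ways in 3 members. The log2 ratio was -3.29 in skin and 1.43 in PG for Slpi, -1.10 and 0.63 for Defb6, and 3.17 and -0.59 for S100a8. In skin 1 cell held 16 of 18 Slpi UMIs, and another held 22 of 24 S100a8 UMIs. With 1 library per tissue, the difference between the tissues was not tested in any of these cases.

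A signal outside the barcodes used was that of the 4 skin barcodes under the limits that met the neutrophil gate, with 36935 CPM (29847 to 45199) of S100a8 and 99018 CPM (87169 to 112028) of S100a9.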

How the results depend on the processing

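Across 14 alternatives, the log2 ratio of Lcn2 in PG over skin stayed within its counting interval in sebocytes and basal keratinocytes. In sebocytes that interval is wide, since the skin value rests on 1 UMI, so staying within it says little. For Lcn2 in PG sebocytes over basal keratinocytes (0.29) the value was 0.25 with at least 1000 genes and 2000 UMIs, 0.37 with a mitochondrial limit of 5%, 0.035 with 1 marker more per gate, 0.39 as a mean over cells, 0.50 with free RNA subtracted, 0.51 with free RNA from barcodes of at most 50 UMIs, 0.33 without Sparc and 0.21 without mitochondrial and ribosomal protein genes. For Defb6 in skin duct over basal keratinocytes (5.13) the values were 4.85, 5.39 (1 marker more per gate), 5.47 (mean over cells), 6.25, 5.82 and 5.64 (the 3 free RNA settings) and 4.99 (without mitochondrial and ribosomal protein genes). Of 533 values for 44 other results, 469 stayed within the counting interval, 62 moved outside it, and 2 reversed: Defb6 in duct cells, PG over skin, at -0.21 as a mean over cells, and Lcn2 in PG duct cells by the suprabasal gate, at -0.16 with 1 marker more per gate. The cause was not tested. No paired analysis was possible because each tissue had 1 pooled library. The 25 skin sebocytes limit the values of that class: Lcn2 rests on 1 UMI, and Slpi, S100a8, S100a9, Camp, Ltf and Pglyrp1 had 0 UMIs there.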

Other observations

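The remaining beta-defensin genes were looked at after the values of Defb1 and Defb6 were seen. Of 42 genes with a Defb symbol in the files, 17 had a UMI in a passing barcode and 5 reached 20 CPM in a class of at least 20 cells (Defb1, Defb2, Defb25, Defb6 and Defb8), Defb25 with 1 UMI in that class. Shares over all genes are not given beside these counts, so nothing is read from them. Defb8 had 1330.2 CPM (1140.4 to 1543) in skin sebocytes, where 3 of the 25 cells held 175 of the 196 Defb8 UMIs of the skin library. PG held 0 Defb8 UMIs among all passing barcodes. Defb2 had 311 UMIs in PG and 20 in skin, and in PG it was highest in the keratinocytes of no finer gate, with 30.3 CPM (24.98 to 36.3) in 105 cells.

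Barcodes with more than 10% mitochondrial UMIs, left out above, numbered 232 in skin and 662 in PG. In them Lcn2 had 2.7 CPM (1 UMI) in skin and 1497 CPM (1440.0 to 1556) in PG, and Camp had 14.5 CPM (9.4 to 21.5) in PG.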
